A study of Mus musculus with 8 samples.

Results

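The genes described here belong to cholesterol synthesis and its feedback control: Hmgcs1, Idi1, Fdft1, Sqle, Lss, Cyp51 and Insig1, taken by symbol from a table of 43430 genes. All 7 had a row and all 7 passed the filter on low counts, as did 12689 genes in all. None of the 7 takes up cholesterol, so uptake is described below from other genes. The libraries hold RNA from endothelium of the lung, taken on postnatal day 15 from C57BL/6 animals. Knockout (KO) cells came from mice whose endothelium lost QPC by conditional deletion. QPC belongs to complex III of the respiratory chain in mitochondria, and its gene was read as Uqcrq. Wild-type (WT) cells came from mice labelled wild type. The labels describe tamoxifen, the drug that starts the deletion, from postnatal day 0 to day 4 for both groups, and a sort for the surface protein CD31. Neither the driver of the deletion nor any pooling of animals is stated in those labels. Each group had 4 libraries, and since the labels do not say that these came from separate animals, the p-values rest on a spread between libraries that may be technical.

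Cells make cholesterol from acetyl-CoA. Hmgcs1 makes HMG-CoA, the mevalonate pathway turns it into isoprenoid units, Fdft1 joins these into squalene, and Sqle, Lss and Cyp51 carry squalene through lanosterol towards cholesterol. The last stages of the pathway use oxygen directly, at Sqle and Cyp51 among others. When sterols fall in the endoplasmic reticulum, the escort SCAP carries the transcription factor SREBP2 to the Golgi, where proteases free it to switch on nearly the whole pathway. Insig1 holds SCAP back when sterols are plentiful and is itself a target of SREBP2.

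Promoter sequences in RefSeq (build GRCm38.p6) were matched for 5 of the 7 genes. Shown are the stretches upstream of Cyp51, the gene whose KO and WT libraries did not overlap, and of Hmgcs1, whose KO and WT means were close. These were the 2 of the 5 with the letters TCACCNCA, which cover the sterol regulatory element as it is usually written. The Cyp51 stretch is chr5:4104747-4104947 on the minus strand and the Hmgcs1 stretch chr13:119690101-119690350 on the plus strand, each 5′ to 3′ and ending before the annotated transcript. Capitals mark TCACCNCA and CCAAT, the letters bound by NF-Y, a frequent partner of SREBP2, on either strand (CCAAT reads ATTGG on the other strand). The search covered the 250 bases before the RefSeq start, and the Cyp51 stretch stops short of that start because an annotated transcript begins earlier. Cyp51 also holds CCAAT 29 bases before the RefSeq start, beyond the stretch shown.
Cyp51: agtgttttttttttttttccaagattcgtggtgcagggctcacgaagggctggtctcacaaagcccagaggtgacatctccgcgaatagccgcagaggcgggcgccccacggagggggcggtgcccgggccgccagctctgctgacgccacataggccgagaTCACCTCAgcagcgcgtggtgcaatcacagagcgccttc
Hmgcs1: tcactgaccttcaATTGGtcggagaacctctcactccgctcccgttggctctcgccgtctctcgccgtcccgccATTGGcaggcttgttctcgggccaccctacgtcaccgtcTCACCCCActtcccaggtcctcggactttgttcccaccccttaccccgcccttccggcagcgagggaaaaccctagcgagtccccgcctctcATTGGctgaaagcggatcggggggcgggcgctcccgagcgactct
The match began 88 bases before the RefSeq start in Cyp51 and 137 bases before it in Hmgcs1, and the motifs do not overlap. TCACCNCA was present in 3.61% of 32851 mouse promoters over the 250 bases before the start, CCAAT in 33.8%. A match describes the letters only. The search letters were chosen with these sequences in view.

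No gene of the 7 was called between KO and WT cells, and for 4 of them the fitted change was close to 0. By edgeR with Benjamini-Hochberg adjustment at 0.05, 0 of 7 were called, while 3.63% of all genes tested were, 2.25% as higher and 1.39% as lower in KO. Limma voom called 0 of 7 as well, and DESeq2 called 0 of the 6 to which it gave an adjusted p. At an unadjusted edgeR p under 0.05 there was 1 of 7, Cyp51, against 15.2% of all genes. The fitted log2 fold change lay above 0 for 6 of 7 genes, against 51.0% of all genes, with a median of 0.05, against 0.01 over all genes tested. All 4 KO libraries lay above all 4 WT libraries for 1 of 7 genes (6.95% of all genes) and below them for 0 of 7 (4.67% of all genes). Single libraries moved these values. Without KO replicate 1 the median of the 7 log2 fold changes was 0.40, without WT replicate 1 it was 0.44, and without WT replicate 2 it was -0.10.

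**Figure D1:**
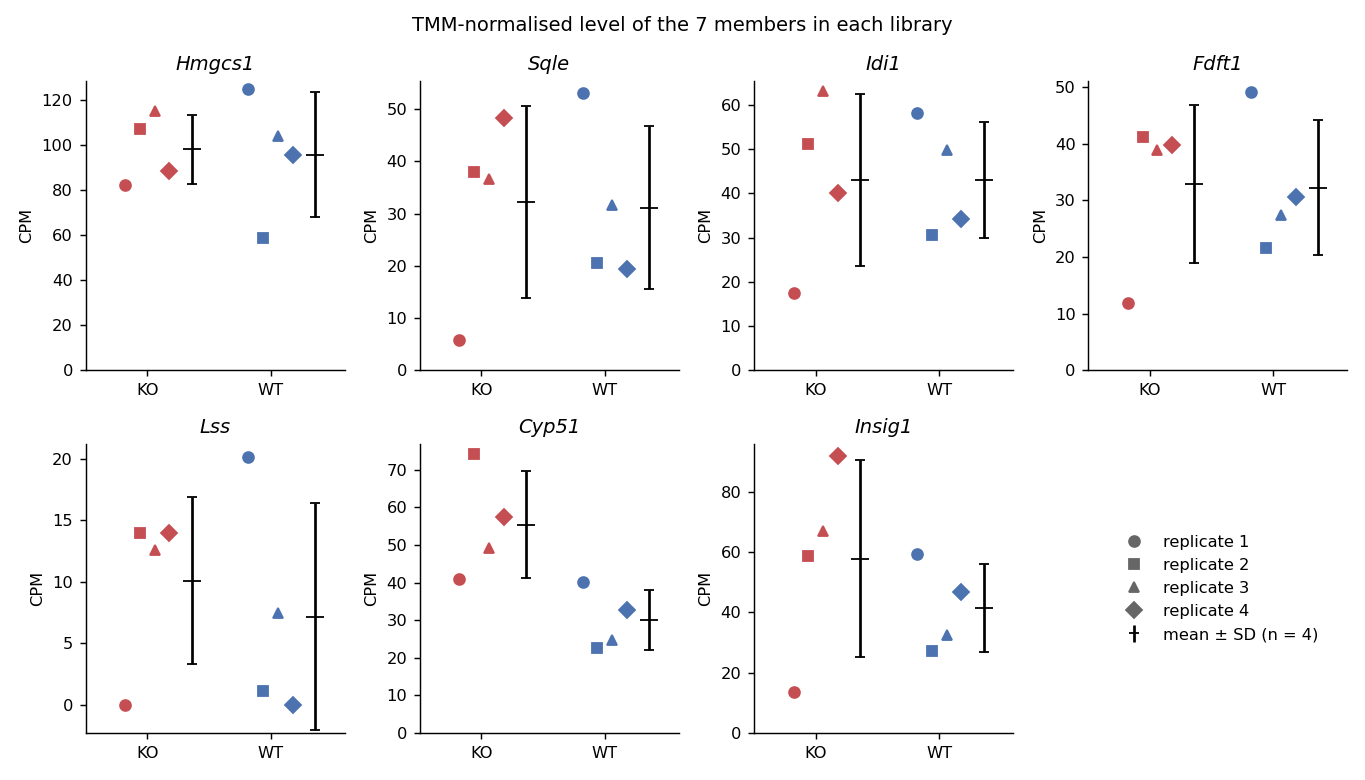
Library-scaled counts (CPM, TMM-normalised) of each of the 7 genes, with 1 point per library (KO left, WT right) and the mean ± SD beside them (n = 4 each). KO replicate 1 is the lowest KO library and WT replicate 1 the highest WT library in every panel, and Cyp51 is the 1 gene without overlap, its KO libraries at 41.0 to 74.3 CPM above WT libraries at 22.6 to 40.1 CPM.

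Hmgcs1 (ENSMUSG00000093930, chromosome 13, 119690379 to 119708260 in GRCm38), the cytosolic HMG-CoA synthase, had 82.4, 107, 115 and 88.3 CPM (counts scaled to library size, TMM-normalised) in KO replicates 1 to 4, and 125, 58.6, 104 and 95.6 CPM in WT replicates 1 to 4. The WT libraries spanned the whole KO range, with WT replicate 1 the highest and WT replicate 2 the lowest of all. The means were 98.1 ± 15.3 CPM in KO and 95.7 ± 27.7 CPM in WT (SD, n = 4 each), a log2 fold change of 0.03 (SE 0.22, edgeR adjusted p = 0.984). Its 95% interval of -0.44 to 0.51 was the narrowest of the 7 genes, so a doubling or a halving (a log2 difference beyond 1 in either direction) lay outside it.

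Idi1 (ENSMUSG00000058258, chromosome 13, 8885501 to 8892451), which interconverts the isoprenoid units, had 17.5, 51.2, 63.1 and 40.1 CPM in KO replicates 1 to 4, and 58.2, 30.5, 49.7 and 34.2 CPM in WT replicates 1 to 4. The groups overlapped and their means were 43 ± 19.4 CPM in KO and 43.1 ± 13.1 CPM in WT (SD, n = 4 each, edgeR adjusted p = 0.998). Its log2 interval ran from -0.74 to 0.73.

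Fdft1 (ENSMUSG00000021273, chromosome 14, 63145150 to 63179578), the squalene synthase that commits isoprenoids to sterols, had 11.9, 41.1, 38.8 and 39.8 CPM in KO replicates 1 to 4, and 49.2, 21.6, 27.4 and 30.5 CPM in WT replicates 1 to 4. In KO, 3 libraries sat within a narrow range and replicate 1 well below them, whereas WT replicate 1 was above every KO library. The log2 fold change was 0.03 (SE 0.38, 95% interval -0.78 to 0.84, edgeR adjusted p = 0.989). Exons of Fdft1 overlap those of Ctsb, on the opposite strand, over 774 bases. The strand setting of the counting is not given, so how reads in such shared bases were counted is not known. The same holds for Hmgcs1 with Gm48342 (557 bases), Lss with 4930483K19Rik (381 bases), Idi1 with Gm48574 (323 bases) and Cyp51 with Akap9 (166 bases).

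Sqle (ENSMUSG00000022351, chromosome 15, 59315077 to 59331192), the squalene epoxidase, had 5.80, 38.0, 36.6 and 48.3 CPM in KO replicates 1 to 4, and 53.0, 20.6, 31.6 and 19.4 CPM in WT replicates 1 to 4. The groups overlapped, since every WT library except replicate 1 lay inside the KO range. KO replicate 1 was the lowest library of all and WT replicate 1 the highest. The log2 fold change was 0.05 (SE 0.53), and the 95% interval of -1.10 to 1.20 took in a doubling and a halving (edgeR adjusted p = 0.989).

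Lss (ENSMUSG00000033105, chromosome 10, 76531588 to 76557138), the lanosterol synthase that closes the sterol rings, was the lowest of the 7 and the most uneven. It had 0, 14, 12.6 and 14 CPM in KO replicates 1 to 4, and 20.1, 1.12, 7.46 and 0 CPM in WT replicates 1 to 4. A library at 0 in each group overlapped the other group, and the log2 fold change of 0.50 had a 95% interval of -2.83 to 3.83 (edgeR adjusted p = 0.953). It was 0.09 without WT replicate 4, 1.84 without WT replicate 1 and 2.07 with a block for replicate number, none of them called. A count of 0 allowed up to 3 counts, or 0.28 CPM in KO replicate 1 and 0.246 CPM in WT replicate 4, for counting error only. In every library fewer genes had 3 to 10 counts (115 to 1004) than 11 to 30 counts (591 to 1742), and KO replicate 1 had 141 and 591.

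Cyp51 (ENSMUSG00000001467, chromosome 5, 4081145 to 4104746), the lanosterol demethylase, differed most between the groups. It had 41.0, 74.3, 49.3 and 57.3 CPM in KO replicates 1 to 4, and 40.1, 22.6, 24.6 and 32.8 CPM in WT replicates 1 to 4. The groups did not overlap, but KO replicate 1 and WT replicate 1 lay close together. The means were 55.4 ± 14.2 CPM in KO and 30 ± 8.06 CPM in WT (SD, n = 4 each), a fitted 1.84-fold difference. The log2 fold change was 0.88 (SE 0.28, 95% interval 0.29 to 1.47), with an unadjusted p of 0.00587 that did not pass after adjustment over all genes (edgeR adjusted p = 0.0994, rank 749 by p of 12689 genes). In a fit that also held the level of alveolar type 2 markers the gene passed, at a log2 fold change of 1.02 (edgeR adjusted p = 0.0377). Over all alternatives its edgeR, DESeq2 or limma voom adjusted p ran from 0.0377 to 0.328, the highest without KO replicate 2.

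Insig1 (ENSMUSG00000045294, chromosome 5, 28071363 to 28078662), which holds SCAP back in the endoplasmic reticulum, had 13.7, 58.9, 66.9 and 92.1 CPM in KO replicates 1 to 4, and 59.5, 27.2, 32.5 and 46.7 CPM in WT replicates 1 to 4. KO held both the lowest library and, in replicates 3 and 4, the 2 highest, so the groups overlapped. The means of 57.9 ± 32.7 CPM in KO and 41.5 ± 14.6 CPM in WT (SD, n = 4 each) gave a log2 fold change of 0.48 (SE 0.46, 95% interval -0.53 to 1.49, edgeR adjusted p = 0.766). The value turned on single libraries, at 0.81 without KO replicate 1 and 0.15 without KO replicate 4, with edgeR adjusted p of 0.18 and 0.981.

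Per kilobase of exon, which allows genes to be compared, Hmgcs1 had the highest mean in both groups, at 21.3 ± 3.34 CPM per kilobase in KO and 20.8 ± 6.02 in WT. Insig1 followed at 18.7 ± 10.6 CPM per kilobase in KO and 13.4 ± 4.71 in WT, which in KO was within its spread of Hmgcs1. Without KO replicate 1 this order turned, with Insig1 at 23.5 ± 5.6 and Hmgcs1 at 22.5 ± 2.99 CPM per kilobase in KO (SD, n = 3). Next with all libraries came Idi1 at 12.3 ± 5.54 in KO and 12.3 ± 3.73 in WT, within the spread of Insig1. Cyp51 was at 12.6 ± 3.22 CPM per kilobase in KO, beside Idi1, and at 6.80 ± 1.83 in WT, between Fdft1 at 7.62 ± 2.83 and Sqle at 5.62 ± 2.81. In KO, Fdft1 had 7.78 ± 3.32 and Sqle 5.80 ± 3.31 CPM per kilobase, again within their spread. Lss was last, at 0.94 ± 0.63 CPM per kilobase in KO and 0.665 ± 0.856 in WT (SD, n = 4 each where no n is given). Its exon length of 10787 bases, summed over every annotated transcript, lowers this value relative to the other genes, whose lengths were 3093 to 5546 bases.

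**Figure D2:**
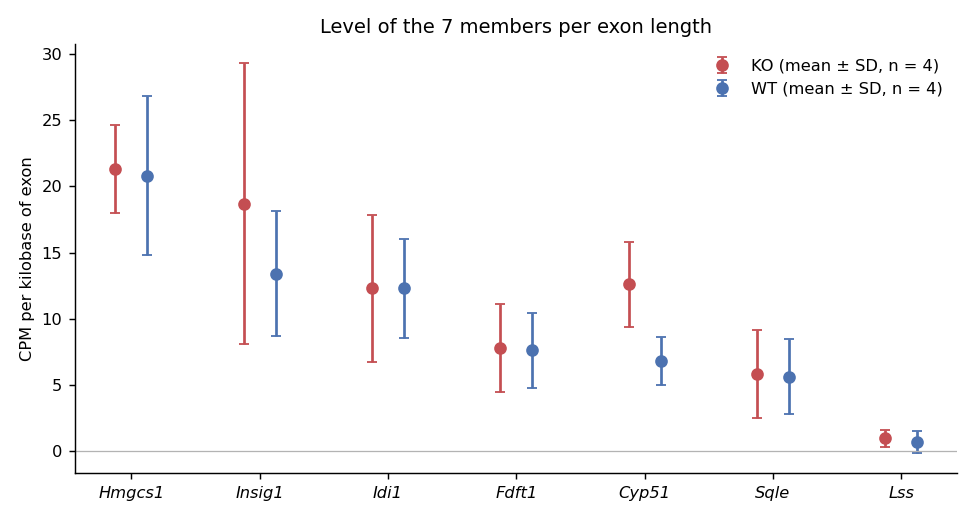
Mean ± SD (n = 4 each) of each gene in CPM per kilobase of exon, KO left of WT, ordered by the WT mean. The pairs lie within their error bars except Cyp51, at 12.6 ± 3.22 in KO and 6.80 ± 1.83 in WT.

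The same libraries were extreme for most of the 7 genes. KO replicate 1 was the lowest KO library for 7 of 7 genes, whereas it was the lowest for 36.8% of all genes tested. WT replicate 1 was the highest WT library for 7 of 7 (24.4% of all genes), and WT replicate 2 the lowest for 5 of 7 (22.9% of all genes), the exceptions being Sqle and Lss, lowest in WT replicate 4. Summed over the 7 genes, the level was 172, 384, 382 and 380 CPM in KO replicates 1 to 4, and 405, 182, 277 and 259 CPM in WT replicates 1 to 4. Thus 3 KO libraries were nearly equal, and KO replicate 1 was at the level of WT replicate 2. Without KO replicate 1, Insig1 averaged 72.6 ± 17.3 CPM and Cyp51 60.3 ± 12.8 CPM in KO (SD, n = 3).

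Other features of the libraries followed this pattern in part. Uqcrq, the deleted gene, had 1.59, 15.5, 9.55 and 13.9 CPM in KO replicates 1 to 4, and 26.2, 24.4, 26.7 and 31.5 CPM in WT replicates 1 to 4, so that KO replicate 1 was lowest in it too. Over all genes Uqcrq did not pass (log2 fold change -1.42, SE 0.53, edgeR adjusted p = 0.179). Library totals were 11209714 to 13981329 counts in KO and 6407924 to 11951816 in WT, and 12301 genes had a count in KO replicate 1, against 14034 to 14916 in the other KO libraries. In WT the number of genes did not follow the sterol genes, at 13484, 13302, 11813 and 13358 in replicates 1 to 4. The CD31 gene Pecam1 had 416 CPM per kilobase in KO and 434 in WT. Sftpc, the surfactant gene that defines alveolar type 2 cells, had 6240 and 8660, so its RNA was abundant in these sorted samples. The other alveolar type 2 markers ranged from Abca3, at 22.3 in KO and 25.3 in WT, to Sftpb, at 431 and 594 CPM per kilobase. The share of RNA that came from these cells was not measured.

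Summed levels of the 8 alveolar type 2 markers were 3640, 10700, 16000 and 6690 CPM in KO replicates 1 to 4, and 21900, 3800, 9210 and 16600 CPM in WT replicates 1 to 4, with 0 of the 8 absent. KO replicate 1 and WT replicate 2 were lowest in these markers as in the summed sterol genes, and WT replicate 1 highest in both, but WT replicate 4 was high in the markers and not in the sterol genes. The 6 fibroblast markers ranged from 255 to 1260 CPM in KO and 269 to 1310 CPM in WT, lowest in the same 2 libraries, and the 8 leukocyte markers from 394 to 1490 CPM in KO and 410 to 2000 CPM in WT, mostly Lyz2, which alveolar type 2 cells also express. The 8 endothelial markers ranged from 9730 to 12700 CPM in KO and 11400 to 14000 CPM in WT, highest in KO replicate 1 and WT replicate 2. The part of other cells in the pattern was not tested, except that in a fit holding the alveolar type 2 level the median of the 7 log2 fold changes was 0.21. In bulk RNA, fewer cells of a type and less RNA per cell cannot be told apart. Of the 8 mitosis markers 1 was called higher, Plk1 (edgeR adjusted p = 0.0217), against 2.25% of all genes. All 8 had a log2 fold change above 0 (51.0% of all genes), with a median of 1.12. An unadjusted edgeR p under 0.05 was found for 7 of the 8 (15.2% of all genes). The summed level of the mitosis markers was 345 to 943 CPM in KO and 251 to 443 CPM in WT. Their part in the values of the sterol genes was not tested.

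**Figure D3:**
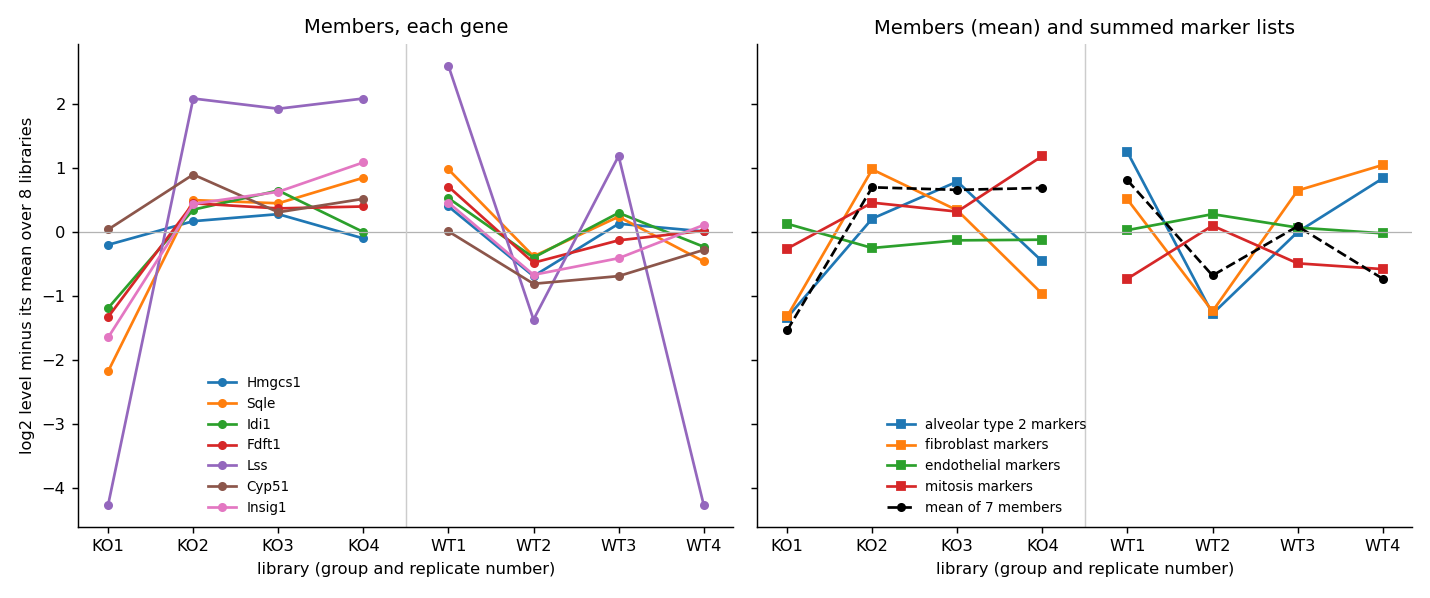
Log2 level of each gene (left) and of the mean over the 7 genes with summed marker lists (right), minus its mean over the 8 libraries, KO replicates left of WT replicates. The mean of the 7 genes is lowest in KO replicate 1, at -1.54, and alveolar type 2 and fibroblast markers are lowest in KO replicate 1 and WT replicate 2. Lss swings furthest, at -4.27 in KO replicate 1 and WT replicate 4, where its count was 0, and this lowers the mean there. Hmgcs1 swings little, and in KO replicate 1 it is at -0.20 and Cyp51 at 0.04.

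The genes whose profile over the 8 libraries lay nearest to the mean profile of the 7 included other genes of the pathway. By root-mean-square difference of centred log2 CPM, the nearest of 12682 genes was Pmvk, the phosphomevalonate kinase, at 0.133. It was followed by Soat1, which esterifies cholesterol for storage (0.314), Dnah2os (0.334), Fdps, the farnesyl diphosphate synthase (0.338), and Mrpl32, a mitochondrial ribosomal protein gene (0.342). This order rested in part on Lss, which has the widest swing. With the mean taken over the other 6 genes, Pmvk ranked 205, Soat1 24 and Fdps 65, and the nearest were Mrpl28, Snrpf, Ubl5, Pop4 and Mrps9, none of them a sterol gene.

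The rest of sterol synthesis gave no call either. Of 6 genes of the mevalonate and isoprenoid steps 0 were called by edgeR, 1 had an unadjusted p under 0.05, and the median log2 fold change was 0.48, against 0.01 over all genes tested. Acat2, the cytosolic acetoacetyl-CoA thiolase that makes the substrate of Hmgcs1, had 16.5, 17.3, 10.9 and 21.8 CPM in KO replicates 1 to 4, and 7.34, 1.12, 5.22 and 4.76 CPM in WT replicates 1 to 4. All KO libraries were above all WT libraries at a low level, with a log2 fold change of 1.85 (SE 0.66, 95% interval 0.44 to 3.26), and the gene did not pass (edgeR adjusted p = 0.159). With the newer dispersion option it passed (edgeR adjusted p = 0.0439), and over all alternatives its adjusted p ran up to 0.445. Mvk, the mevalonate kinase, lay the other way, at 14.4, 15.9, 23.8 and 24.8 CPM in KO replicates 1 to 4, and 27.6, 24.9, 31.3 and 28.9 CPM in WT replicates 1 to 4. These groups did not overlap, although KO replicate 4 and WT replicate 2 nearly met (log2 fold change -0.51, SE 0.32, edgeR adjusted p = 0.541).

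Of 9 genes of the steps after lanosterol 0 were called by edgeR and 0 had an unadjusted p under 0.05, with a median log2 fold change of 0.17. Msmo1, a sterol methyl oxidase, averaged 38.1 ± 14.1 CPM in KO and 27.4 ± 12.1 CPM in WT (SD, n = 4 each, edgeR adjusted p = 0.676). It was lowest among KO libraries in replicate 1, at 19.9 CPM, as were 7 of the 9 genes.

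Of 6 genes that process SREBP or sense sterols 0 were called by edgeR, 1 had an unadjusted p under 0.05, and the median log2 fold change was 0.17. Srebf2, which encodes SREBP2, averaged 142 ± 29.6 CPM in KO and 109 ± 35.9 CPM in WT (SD, n = 4 each, log2 fold change 0.37, SE 0.23, edgeR adjusted p = 0.531). Scap, which encodes the SREBP escort, had 100, 82.1, 94.7 and 67.3 CPM in KO replicates 1 to 4, and 60.3, 63.8, 69.2 and 60.5 CPM in WT replicates 1 to 4. Of the KO libraries, replicate 4 lay inside the WT range, and Scap did not pass, at a log2 fold change of 0.44 (SE 0.20, edgeR adjusted p = 0.286).

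Among 9 genes of sterol uptake, transport and esterification, of which 8 passed the filter on low counts, 1 was called lower and 0 higher by edgeR. Scarb1, the receptor that takes cholesterol from high-density lipoprotein, had 125, 173, 158 and 261 CPM in KO replicates 1 to 4, and 291, 526, 254 and 386 CPM in WT replicates 1 to 4. KO replicate 4 lay just above WT replicate 3, and the other KO libraries lay below every WT library. It averaged 179 ± 58.3 CPM in KO and 364 ± 121 CPM in WT (SD, n = 4 each), a log2 fold change of -1.02 (SE 0.26, edgeR adjusted p = 0.0493). The call ended without KO replicate 1 (edgeR adjusted p = 0.0961), KO replicate 2 (0.146), KO replicate 3 (0.154), WT replicate 1 (0.0559), WT replicate 2 (0.0996) or WT replicate 4 (0.126). In these 6 fits the log2 fold change stayed between -1.11 and -0.79. Over all alternatives the adjusted p of edgeR, DESeq2 or limma voom ran from 0.000859 to 0.165. Of the 8 endothelial markers 2 were called lower and 0 higher, and 3 had a log2 fold change above 0 (median -0.20). The 2 were Tek with a log2 fold change of -0.69 (edgeR adjusted p = 0.00762) and Erg with -0.67 (edgeR adjusted p = 0.0231). Cdh5, at -0.36 (edgeR adjusted p = 0.13), and Egfl7, at -0.33 (edgeR adjusted p = 0.336), went the same way without a call. Pecam1 was at -0.06, Tie1 at 0.00, Kdr at 0.09 and Emcn at 0.35. The groups did not overlap for 3 of the 8, Tek, Erg and Cdh5, with KO lower (4.67% of all genes). Separation with KO higher was seen for 0 of the 8 (6.95% of all genes).

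Vldlr, a lipoprotein receptor, had 35.3, 39.0, 52.8 and 39.9 CPM in KO replicates 1 to 4, and 21.1, 24.8, 27.1 and 32.9 CPM in WT replicates 1 to 4. Every KO library was above every WT library, and Vldlr did not pass, at a log2 fold change of 0.66 (SE 0.27, edgeR adjusted p = 0.246). Stard4, a cytosolic sterol carrier, averaged 126 ± 37.7 CPM in KO and 173 ± 43.4 CPM in WT (SD, n = 4 each, log2 fold change -0.46, edgeR adjusted p = 0.395).

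The nuclear receptor LXR answers to oxysterols and promotes cholesterol export. Of 7 LXR targets and oxysterol genes 6 passed the filter on low counts and 0 were called by edgeR, with 0 at an unadjusted p under 0.05 and a median log2 fold change of -0.26. Abca1, the cholesterol exporter, had 184, 95.1, 94.2 and 82.6 CPM in KO replicates 1 to 4, and 124, 170, 144 and 157 CPM in WT replicates 1 to 4. KO replicate 1, lowest in the sterol synthesis genes, was highest in Abca1, and the other 3 KO libraries lay below all WT libraries. The log2 fold change was -0.38 (SE 0.23, edgeR adjusted p = 0.498), and without KO replicate 1 it was -0.71 and passed (edgeR adjusted p = 0.0359). Over all alternatives the adjusted p of Abca1 by edgeR, DESeq2 or limma voom ran from 0.0359 to 0.804, the highest without KO replicate 4. Mylip, an E3 ligase that degrades lipoprotein receptors, averaged 47.7 ± 23.8 CPM in KO and 79.5 ± 38.2 CPM in WT (SD, n = 4 each, edgeR adjusted p = 0.45).

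Fatty acid synthesis, controlled by the related factor SREBP1, had 0 of 10 genes called by edgeR, 1 at an unadjusted p under 0.05 and a median log2 fold change of 0.11. Scd2, a stearoyl-CoA desaturase, had 296, 348, 369 and 276 CPM in KO replicates 1 to 4, and 472, 375, 458 and 477 CPM in WT replicates 1 to 4. All KO libraries were below all WT libraries, with a log2 fold change of -0.47 (SE 0.14) that did not pass (edgeR adjusted p = 0.0814). DESeq2 called it (DESeq2 adjusted p = 0.00859), the 1 call in 22 alternatives. Elovl6, a fatty acid elongase, averaged 12.5 ± 4.72 CPM in KO and 3.60 ± 3.55 CPM in WT (SD, n = 4 each, log2 fold change 1.79, SE 0.85, edgeR adjusted p = 0.334), and without WT replicate 1 its log2 fold change was 2.75 (edgeR adjusted p = 0.14).

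**Figure D4:**
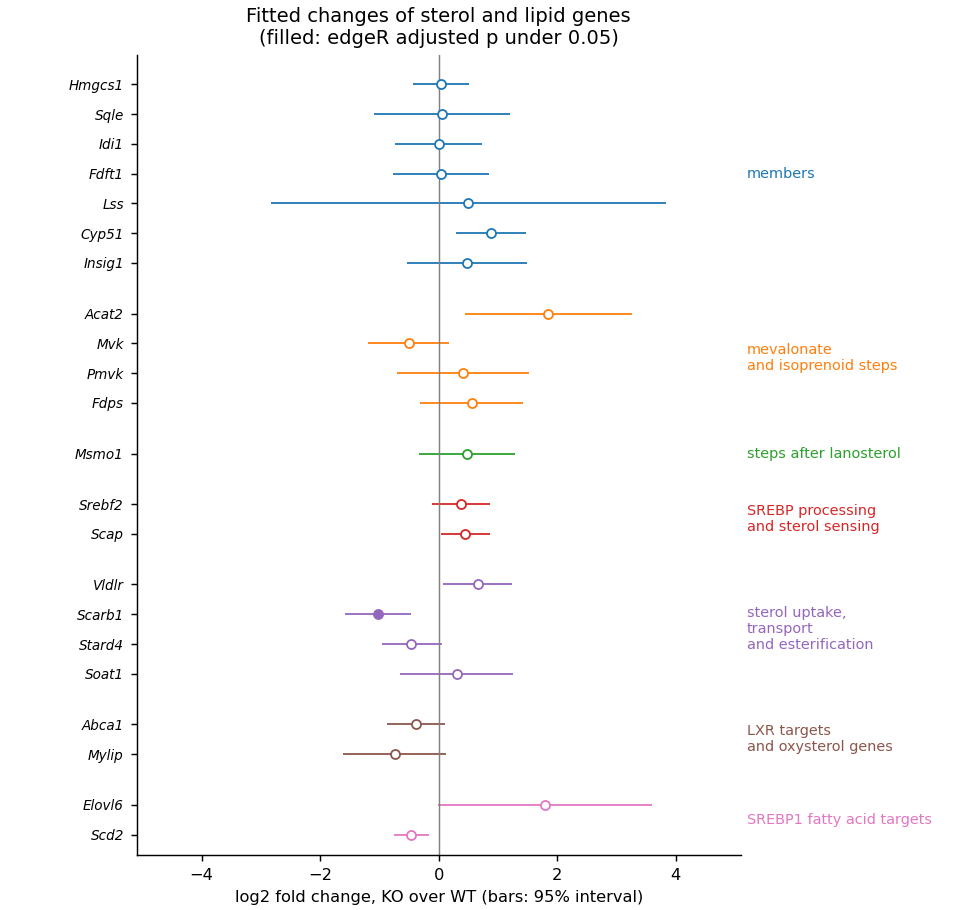
Fitted log2 fold change, KO over WT, of the 7 genes and of the genes of the other lists named in the text, with 95% intervals. Filled points passed at an edgeR adjusted p under 0.05. Scarb1, at -1.02, is the filled point, and of the 7 sterol synthesis and control genes Cyp51, at 0.88, alone has an interval above 0.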

How the data were processed

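RNA-seq of 4 KO and 4 WT libraries was analysed, with groups and replicate numbers from the sample titles. The authors deposited whole-number read counts for each gene, with no normalisation. The submitters' processing notes name HTSeq, TopHat, bcl2fastq and edgeR, and build mm10, without versions. The annotation release, any filter and the strand setting were not given in the labels. Each of the 8 value columns carries a sample's title. Of 43430 gene IDs 42546 had a symbol in GENCODE M21 (GRCm38, the build called mm10), and IDs without one took 0.0607% to 0.0795% of counts. Within a group every pair of libraries differed by more than sampling noise (chi-square over its degrees of freedom, 32.4 to 74.6).

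TMM factors were used, and filterByExpr removed low genes (at least 10 counts, total of at least 15). The KO to WT difference was fitted in edgeR 4.0.16 under R 4.3.3 with robust quasi-likelihood and genotype alone, with Benjamini-Hochberg adjustment over 12689 genes at 0.05. SEs come from the F statistic, intervals are 95%, and CPM uses all counts of a library. The common biological coefficient of variation was 63.5%. Log2 CPM profiles used a prior count of 2. Alternatives were other size factors and filters, DESeq2 1.42.0, limma 3.58.1 (voom), edgeR's newer dispersion option, a replicate block, covariates, removal of trends on transcript length and GC content, and left-out libraries. The pipeline was tested on simulated data. Reads carry no molecular identifiers, so intervals on counts cover counting error only.

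The 7 genes and the other lists were chosen with earlier results of these data known. Named were the 7 genes, list genes that passed, the 2 of each list with the smallest p that did not pass, Uqcrq, and the 5 genes with the nearest profile, of which 1 list gene is not reported here. The genes nearest without Lss, and the markers Pecam1, Sftpc, Sftpb, Abca3, Lyz2, Tek, Erg, Cdh5, Egfl7, Tie1, Kdr, Emcn and Plk1 were named after their values were seen.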

Additional observations from a re-analysis of the deposited data

Results flagged for a closer look

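In a group of 4, a library was marked when its gap to the nearest other library exceeded Dixon's 95% critical value of 0.829 as a share of the group's range. Of 70 groups tested 5 were marked, where chance marks about 1 in 20, and all 5 values were those of KO replicate 1. Fdft1 had 11.9 CPM there, against 38.8 to 41.1 CPM in the other KO libraries. Lss had 0 CPM, against 12.6 to 14 CPM. Fdps had 10.4 CPM, against 39.3 to 44.5 CPM. The summed level of the 7 sterol genes was 172 CPM, against 380 to 384 CPM. Abca1 was marked on the high side, at 184 CPM, against 82.6 to 95.1 CPM in the other KO libraries. The sum contains Fdft1 and Lss, so these values are not independent. Fdps was among the genes tested because its profile lay near the mean profile of the 7, so its mark is not independent either. The rate of 1 in 20 is for independent groups, so the number of marks is a description and not a test.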

How the results depend on the processing

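The 0 calls among the 7 sterol genes held in 21 of 22 alternatives, and the count was 1 (Cyp51, higher) with the alveolar type 2 level as a covariate. Among genes of the other lists the 0 higher calls became 1 (Acat2) with the newer dispersion option. The 1 lower call became 0 with no low-count filter, with the Y-linked level as a covariate, with the length and GC trend removed, and with KO replicate 1 and WT replicate 2 both left out (chosen after the data were seen). It became 2 by DESeq2, and ran from 0 to 1 over single left-out libraries. In the first 3 of these settings Scarb1 was at -1.02, -1.05 and -0.94, against -1.02, with adjusted p of 0.0848, 0.0801 and 0.0963. Scarb1 passed in 12 of 22 alternatives, Scd2 in DESeq2 alone, and Abca1 without KO replicate 1 alone. Over all genes 285 were called higher and 176 lower. The newer dispersion option gave 450 higher and 296 lower and DESeq2 371 lower, and single left-out libraries gave 173 to 259 higher and 97 to 187 lower, the lowest of both without KO replicate 3 and with lower calls at 105 without KO replicate 2 and 111 without WT replicate 2. The cause of these differences was not tested.

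For 4 of the 7 genes, none of them called, the sign of the log2 fold change varied. Hmgcs1 was at -0.02 with library totals only and -0.06 without KO replicate 1 and WT replicate 2. Sqle was at -0.07 by limma voom, -0.00 with the replicate block and -0.02 with the Y-linked level. Idi1 was at 0.03 with the newer dispersion option, 0.09 with the alveolar type 2 level, 0.33 without WT replicate 3 and KO replicate 1 and 0.12 without KO replicate 1 and WT replicate 2. Fdft1 was at -0.01 with RLE factors, with library totals only and by DESeq2, and -0.02 by limma voom. Over single left-out libraries Hmgcs1 ranged from -0.14 to 0.19, Sqle from -0.22 to 0.44, Idi1 from -0.25 to 0.26, Fdft1 from -0.12 to 0.31 and Mrpl32 from -0.08 to 0.40. Mrpl32 was at -0.05 with the replicate block.

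Over all genes, same-numbered libraries did not deviate together (correlations of -0.104 to 0.00442). With 4 libraries per group this cannot exclude a pairing by number. A replicate block gave 215 higher and 123 lower calls over all genes and 0 among the 7. DESeq2 gave Lss no adjusted p. The 4 libraries per group limit what can be seen: the intervals of Sqle, Lss, Cyp51 and Insig1 took in a doubling.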
